A study of Mus musculus with 6 samples.

Results

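Integrins are cell surface receptors made of 1 alpha and 1 beta subunit, and 10 of their subunit genes were followed here in mouse optic fissure at E11.5: Itga1, Itga3, Itga5, Itga6, Itga9, Itgav, Itgb1, Itgb3, Itgb5 and Itgb8. Every probe set that the platform annotation assigns to one of these symbols alone was taken, which gave 32 of the 45037 probe sets that are not manufacturer controls. The optic fissure is a groove along the underside of the optic cup, and laser microdissection was used to collect it from C57BL/6J embryos. The 3 FGFR mutant samples are Six3Cre+;Fgfr1fx/fx;Fgfr2fx/fx, and the 3 control samples are Six3Cre-;Fgfr1fx/fx;Fgfr2fx/fx, so all 6 carried loxP-flanked alleles of both receptor genes and only the mutants carried the Cre transgene. Six3Cre drives recombination in the early eye field and forebrain, so the cells around the optic cup are not its target. Each sample was 1 Affymetrix array, and the numbers 8711, 9216 and 9266 each name 1 mutant and 1 control array. The labels do not say whether samples came from separate embryos or pools, so every p below reflects the spread among these 6 arrays alone, and that spread may be technical.

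An integrin heterodimer binds extracellular matrix outside the cell and, through talin, kindlin and vinculin, the actin cytoskeleton inside it. The alpha subunit largely sets the ligand, with Itga3 and Itga6 forming laminin receptors, Itga5 the main fibronectin receptor, Itga1 a collagen receptor and Itga9 a receptor for tenascin-C and osteopontin. Itgb1 pairs with most alpha subunits, whereas Itgav pairs with Itgb1, Itgb3, Itgb5 and Itgb8 and binds ligands such as vitronectin and latent TGF-beta. In the developing eye the optic cup rests on a basement membrane rich in laminin and collagen IV, which must be remodelled where the fissure margins meet.

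The deposited values are linear intensities, and probe sets with a mean log2 value under a filter level (a linear intensity of 15.1) were not tested. Of the 32 integrin probe sets, 15 passed this filter, for 9 of the 10 genes, and Itga1 had none. The probe sets nearest the filter were Itgb3 1455257_at inside it, with a geometric mean intensity of 21.3, and Itgav 1421198_at outside it, with 12.1. Probe sets differ in how strongly they bind their transcript, so intensities are compared between arrays for 1 probe set and not between genes. Precision is set mainly by the small number of arrays, 3 in each group.

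The mutant 8711 array stood apart from the other 5. Its median intensity was 18.1, against 28.7 to 34.6 in the others, and its ratio of 3 prime to 5 prime signal of the Gapdh control probe sets was 93.6, against 4.26 to 14.96. By the Actb control probe sets it was less far apart, with a ratio of 14.8, against 6.03 to 12.1. Mutant 8711 correlated with the rest at 0.836 on average, against 0.917 to 0.932 for each of the others. All 11 measured optic cup and neural retina markers were above the filter level, Vax2 and Rax of the optic cup among them. So were 11 of 11 pigment epithelium and 13 of 14 periocular mesenchyme markers. Passing the filter therefore cannot check the tissue label. The brightest Fgfr1 probe set averaged 88.5 ± 45.9 (SD, n = 3) in the mutants and 192 ± 88.2 (SD, n = 3) in the controls, and the brightest Fgfr2 probe set averaged 1038 ± 243 (SD, n = 3) and 379.8 ± 83.7 (SD, n = 3) in the same order. Where these probes lie relative to the floxed exons was not analysed here, and probes that miss the deleted exons cannot check the genotype.

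In the comparison of mutant with control fissures, no integrin probe set passed the test over all probe sets. Itgb8 had lower values in every mutant array than in any control array, Itgb5 was bright in 1 of the 3 mutant arrays, and the brightest probe sets of Itgav and Itga6 lay at nearly equal means in both genotypes. With limma and Benjamini-Hochberg adjustment, 0 of 27022 probe sets tested passed an adjusted p of 0.05 (0%), and the smallest adjusted p of an integrin probe set was 0.802. At an unadjusted p under 0.05, 1 of the 15 integrin probe sets was lower in the mutants and 0 were higher, beside 2.55% lower and 3.02% higher over all probe sets tested. The groups did not overlap for 2 of the 15, against 13.5% of all probe sets tested. By the brightest probe set of each gene, 5 of the 9 tested integrin genes had higher and 4 had lower values in the mutants, where 53.6% of all 12282 genes were higher. Their median log2 difference was 0.01, against 0.03 over all genes, and the groups did not overlap for 1 of the 9, against 14.9% of all genes. The 5 rest on small values for Itga3, Itga6 and Itgav, and the number higher ran from 3 to 5 with any 1 array left out.

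**Figure D1:**
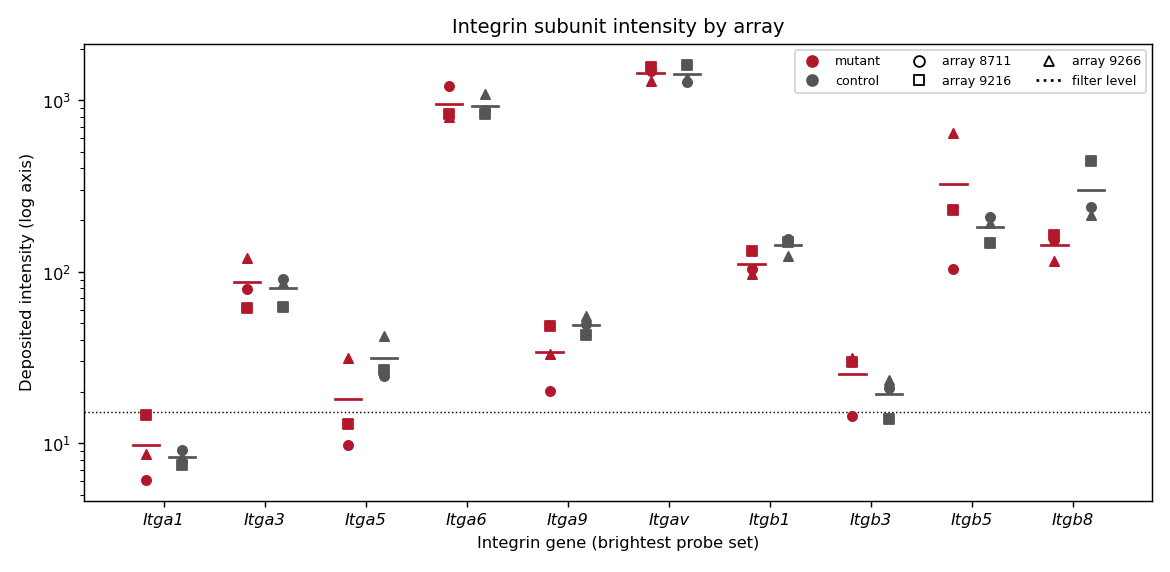
Intensity (log axis) of the brightest probe set of each of the 10 integrin genes in the 3 mutant (red) and 3 control (grey) arrays, with marker shapes for the array numbers and short lines at the group means. All 3 mutant values of Itgb8 lie below its 3 control values, the mutant 9266 value of Itgb5 lies above all others, and Itga1 lies wholly under the filter level (dotted line).

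Itgb8 encodes a beta subunit whose only partner is the Itgav product, and the pair releases active TGF-beta from its latent complex, and it is known from neuroepithelial cells of the embryonic brain. Its only probe set, 1436223_at, had intensities of 153, 164 and 115 in mutant arrays 8711, 9216 and 9266, against 239.6, 440.3 and 215.5 in control arrays 8711, 9216 and 9266. All mutant values were below all control values, and control 9216 stood above the other controls. The means were 144 ± 25.9 (SD, n = 3) in the mutants and 298 ± 123 (SD, n = 3) in the controls. The log2 difference was -0.98 (SE 0.33), with a limma unadjusted p of 0.0218 and an adjusted p of 0.802. Its 95% interval, not adjusted for the number of probe sets, ran from -1.77 to -0.19. Without control 9216 the difference was -0.67, and its unadjusted limma p was 0.0572. Without mutant 9266 the difference was -0.83 (unadjusted limma p 0.0669), and with median centring of the arrays it was -0.87 (0.0772). The unadjusted limma p stayed under 0.05 with any other single array left out. By unadjusted p, Itgb8 ranked 450 of the 12282 genes tested, the foremost of the integrin genes. In bulk tissue, fewer cells of a type and less RNA per cell cannot be told apart.

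Most optic cup and neural retina markers also had lower values in the mutants. All 11 measured genes had a log2 difference below 0, though of only -0.0047 for Lhx2, and the groups did not overlap for 7 of them, against 14.9% of all genes. None of the 11 was at 0. Their summed intensity ran from 5583 to 7811 in the mutants and from 12846 to 13059.5 in the controls. Their mean log2 value was lower by a similar amount in each mutant array, at -1.03, -1.01 and -1.12 relative to the control mean in mutants 8711, 9216 and 9266. Itgb8 relative to its own control mean was at -0.88, -0.78 and -1.29 in the same arrays. The part of this marker shift in the Itgb8 difference was not tested. In 1 control array, 9216, Itgb8 was at 0.63 and the marker mean at -0.14, and single markers differed there. Among the controls, Sox2 (2028) and Zic1 (5282) were highest in 9216, and Rax (207) and Hes1 (468) were lowest in it.

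Itgb5 encodes the beta subunit of a vitronectin receptor, known in the adult retinal pigment epithelium for its part in the uptake of photoreceptor outer segments. Its brightest probe set, 1417533_a_at, had 104, 228 and 647 in mutants 8711, 9216 and 9266, against 209.9, 147 and 191 in controls 8711, 9216 and 9266. Mutant 9266 was far above the controls, mutant 9216 slightly above them, and mutant 8711 below them. The means were 326 ± 284 (SD, n = 3) in the mutants and 183 ± 32.1 (SD, n = 3) in the controls, a log2 difference of 0.46 (SE 0.63) with a limma adjusted p of 0.880. The value depends on single arrays, at -0.23 without mutant 9266 and 1.08 without mutant 8711. Without mutant 8711 the unadjusted limma p was 0.0345 and the adjusted p 0.526.

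All 4 Itgb5 probe sets were tested, and mutant 9266 was the brightest of the 6 arrays in each. Probe set 1456133_x_at had 132, 215 and 461 in mutants 8711, 9216 and 9266, against 145, 148.5 and 164.5 in controls 8711, 9216 and 9266. Probe set 1456195_x_at had 158, 206 and 408 in the same mutants, against 143.5, 119 and 131 in the same controls, and among the 15 tested integrin probe sets it was the 1 with all mutant values above all control values. The _x_at suffix marks probe sets whose probes can bind related transcripts. Probe set 1417534_at had 42.1, 97.9 and 257.5 in the mutants, against 137, 55.8 and 95.3 in the controls. The log2 differences of these 3 were 0.62 (SE 0.45), 0.85 (SE 0.37) and 0.18 (SE 0.68), with limma adjusted p of 0.852, 0.852 and 0.956. Without mutant 9266 they were 0.14, 0.46 and -0.47, and without mutant 8711 they were 1.04, 1.14 and 0.81. Mutant 8711 was below the lowest control in 3 of the 4 probe sets and above the highest control in 1456195_x_at.

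Pigment epithelium markers were highest in the same mutant array. Their mean log2 value relative to the control mean was 0.56, 0.72 and 1.43 in mutants 8711, 9216 and 9266, and their summed intensity ran from 21902 to 32945 in the mutants and from 13622 to 15566 in the controls, with 11 of 11 markers above the filter level. Gpnmb, a melanosome glycoprotein chosen from that list after its values were seen, had 99.3, 206 and 611 in mutants 8711, 9216 and 9266, against 134, 141.5 and 119 in the controls. That order of arrays is the order seen for Itgb5 among the mutants, and 5 of the 11 pigment epithelium markers had it. The other markers did not. Mitf (4318, 4076 and 5351 in mutants 8711, 9216 and 9266) and Dct (6575, 5176 and 8191) were lowest in mutant 9216. The share of all genes with the Itgb5 order was not counted. The median intensities of the arrays had it too, at 18.1, 32.2 and 34.6 in mutants 8711, 9216 and 9266. Periocular mesenchyme markers also stood highest in mutant 9266, at 1.13, against 0.47 and 0.75 in mutants 8711 and 9216 and from -0.56 to 0.28 in the controls. Their summed intensity ran from 3006 to 3711.5 in the mutants and from 1255 to 2508 in the controls, and 13 of 14 were above the filter level. Lens (0.61) and platelet and megakaryocyte (0.78) markers were also highest in mutant 9266, whereas macrophage, vascular endothelial and optic cup markers were not. The part of any of these marker lists in the Itgb5 values was not tested.

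**Figure D2:**
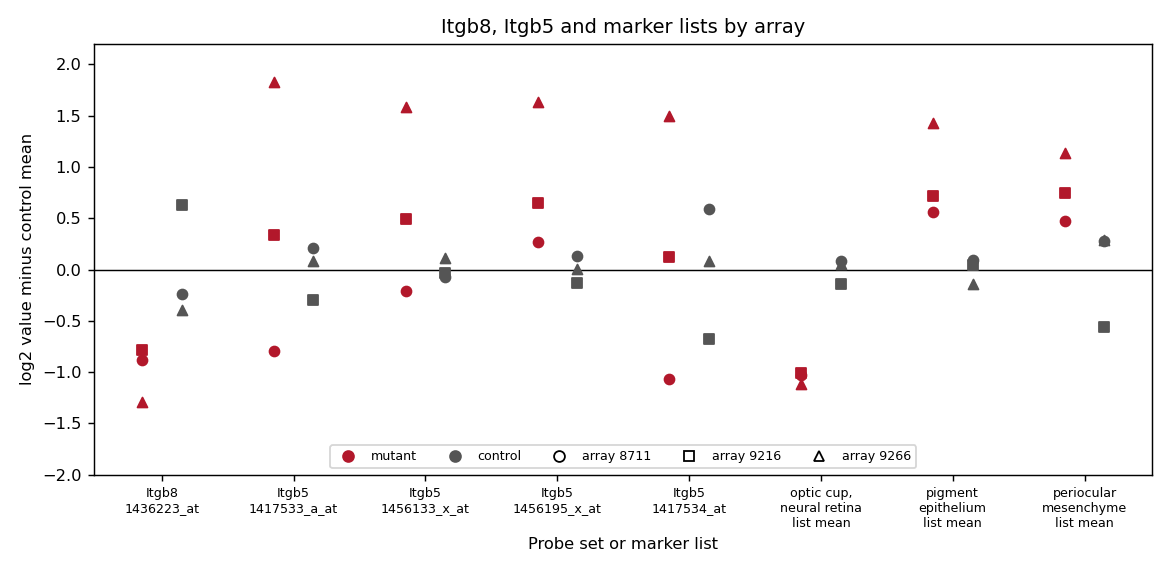
Log2 value minus the control mean for Itgb8, the 4 Itgb5 probe sets and the mean of 3 marker lists, with mutant arrays in red and control arrays in grey and marker shapes for the array numbers. Mutant 9266 is the highest array in all 4 Itgb5 probe sets (up to 1.83) and in the pigment epithelium list (1.43), and the mutant values of Itgb8 lie between -1.29 and -0.78.

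Itgav encodes the alpha subunit shared by the Itgb3, Itgb5 and Itgb8 receptors. Its brightest probe set, 1452784_at, had 1479.8, 1561 and 1295 in mutants 8711, 9216 and 9266, against 1285, 1611 and 1356 in controls 8711, 9216 and 9266. The groups overlapped throughout, averaging 1445 ± 136 (SD, n = 3) in the mutants and 1417 ± 172 (SD, n = 3) in the controls. The log2 difference was 0.03 (SE 0.17), with a 95% interval from -0.37 to 0.43 and a limma adjusted p of 0.970. This was the narrowest interval of the 15 tested integrin probe sets, and a difference inside it in either direction cannot be seen with these arrays. The other 4 Itgav probe sets were under the filter level and not tested, with values from 0.4 to 19.5 over all arrays.

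Itgb3 encodes the beta subunit of a vitronectin and fibrinogen receptor, and also pairs with Itga2b on platelets. Its tested probe set, 1455257_at, had 14.4, 29.8 and 31.5 in mutants 8711, 9216 and 9266, against 20.9, 13.9 and 23.3 in the controls. The groups overlapped, and the log2 difference was 0.31 (SE 0.42), with a limma adjusted p of 0.878. It was 0.65 without mutant 8711, 0.12 without mutant 9266 and 0.11 without control 9216. The platelet and megakaryocyte markers were measured beside it, with 6 of 8 above the filter level and Gp9 and Gp6 under it. Their summed intensity ran from 527 to 602 in the mutants and from 347 to 633 in the controls, so these sums overlapped. Pf4 was the brightest member, and all 6 tested markers had higher mean log2 values in the mutants (median difference 0.52). Relative to the control mean, the list's mean log2 value was 0.0040, 0.33 and 0.78 in mutants 8711, 9216 and 9266, against -0.15, -0.11 and 0.26 in controls 8711, 9216 and 9266, and its part in the Itgb3 values was not tested.

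Itga6 encodes the alpha subunit of a laminin receptor of epithelia and neuroepithelia. Its brightest probe set, 1422445_at, had 1204, 835 and 804 in mutants 8711, 9216 and 9266, against 882, 827 and 1081 in the controls, averaging 947 ± 222 (SD, n = 3) in the mutants and 929.9 ± 134 (SD, n = 3) in the controls. The log2 difference was 0.01 (SE 0.23), with a 95% interval from -0.52 to 0.55 and a limma adjusted p of 0.992. The second probe set, 1422444_at, had 131, 320 and 366 in mutants 8711, 9216 and 9266, against 347, 338 and 332.5 in the controls. Mutant 8711 was the highest array for the first probe set and the lowest for the second. The log2 difference of 1422444_at was -0.44 (SE 0.39) over all arrays and 0.01 without mutant 8711.

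Itga3 encodes another laminin receptor subunit. Its tested probe set, 1455158_at, had 79.6, 61.4 and 120 in mutants 8711, 9216 and 9266, against 91.1, 62.5 and 86.3 in the controls. The 9216 array was the lowest of each genotype, and the groups overlapped. The log2 difference was 0.08 (SE 0.34), with a limma adjusted p of 0.959, and it was -0.17 without mutant 9266 and -0.08 without control 9216. Itga1, a collagen receptor subunit, had at most 14.6 on any array in either of its probe sets and was not tested.

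Itgb1 encodes the beta subunit common to the laminin, fibronectin and collagen receptors. Its brightest probe set, 1426918_at, had 104, 131 and 96.5 in mutants 8711, 9216 and 9266, against 155, 149 and 124 in the controls. Only mutant 9216 lay inside the control range. The means were 110.5 ± 18.4 (SD, n = 3) in the mutants and 143 ± 16.3 (SD, n = 3) in the controls. The log2 difference was -0.37 (SE 0.25), with a 95% interval from -0.97 to 0.22 and a limma adjusted p of 0.852. The second tested probe set, 1452545_a_at, had 47.8, 123 and 88.0 in mutants 8711, 9216 and 9266, against 116, 131 and 98.5 in the controls, a log2 difference of -0.50 (SE 0.39) that was -0.14 without mutant 8711. The other 4 Itgb1 probe sets, with values from 0.3 to 25.7, were under the filter level.

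Itga5 encodes the fibronectin receptor subunit that pairs with Itgb1. It was dim, with 9.7, 13 and 31.3 for probe set 1458996_at in mutants 8711, 9216 and 9266, against 24.7, 26.9 and 42.0 in the controls. Mutants 8711 and 9216 were under the filter level and mutant 9266 was within the control range. The log2 difference was -0.86 (SE 0.49), with a limma adjusted p of 0.852. It was -0.54 without mutant 8711 and -1.31 without mutant 9266. The second tested probe set, 1457561_at, had a log2 difference of -0.37 (SE 0.43).

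Itga9 probe sets disagreed with each other. The brightest, 1460285_at, had 20.2, 48.1 and 33.3 in mutants 8711, 9216 and 9266, against 49.7, 42.6 and 55.4 in the controls, a log2 difference of -0.59 (SE 0.39) with a limma adjusted p of 0.852, or -0.28 without mutant 8711. Probe set 1450029_s_at, under the filter level, had 20.5, 16.8 and 21.4 in the mutants, against 2.1, 8.4 and 10.0 in the controls, so that every mutant value lay above every control value. With no filter its log2 difference was 1.47 (SE 0.55), with a limma adjusted p of 0.869 over 45037 probe sets. Both probe sets are annotated to the same gene, and which one follows the Itga9 transcript was not tested.

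**Figure D3:**
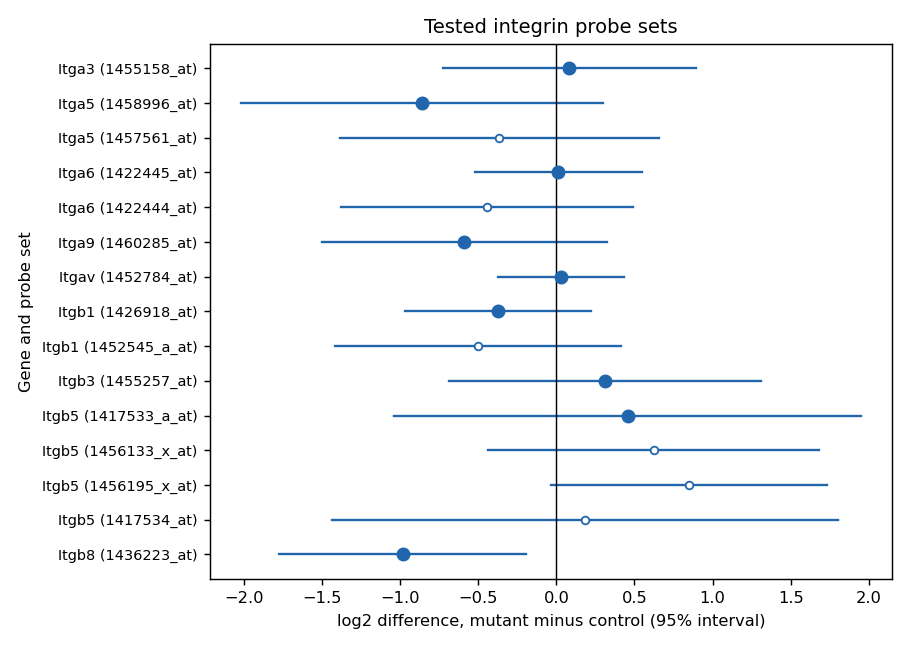
Log2 difference, mutant minus control, with its 95% interval from limma, for the 15 tested integrin probe sets; filled points are the brightest probe set of a gene and open points the others. The interval of Itgb8 alone lies on one side of 0 before adjustment, and 2 of the 4 Itgb5 intervals are the widest.

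Of 17 other integrin subunits listed, 15 had a probe set and 7 were tested, of which 5 had higher and 2 lower values in the mutants (median log2 difference 0.10). None passed adjustment, and 0 had an unadjusted limma p under 0.05, beside 4.4% of all genes higher and 2.52% lower. Without mutant 8711, Itga8 was lower at that level, 1 of the 7, against 3.97% of all genes. Itga8, a partner of Itgb1 that binds nephronectin, had 177, 125 and 59.1 in mutants 8711, 9216 and 9266, against 222.5, 160.2 and 180 in the controls, a log2 difference of -0.75 (SE 0.42) with a limma adjusted p of 0.852. It was -0.32 without mutant 9266 and -1.10 without mutant 8711. Itga2b, the platelet partner of Itgb3, had 37.8, 53.5 and 46.3 in the mutants, against 33.1, 34.9 and 40.7 in the controls, a log2 difference of 0.32 (SE 0.30). Leukocyte subunits fell on both sides of the filter level. Itgam, Itgax and Itgb2 were under it, while Itgal, Itgae and Itga4 were above it. Itgal was dim, averaging 17.0 in the mutants and 16.1 in the controls. All 14 macrophage markers measured were above the filter level.

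Among 27 tested extracellular ligands of integrins, 19 had higher and 8 lower values in the mutants. The median log2 difference was 0.24, against 0.03 over all genes. None passed adjustment. At an unadjusted limma p under 0.05, 2 were higher (against 4.4% of all genes) and 0 were lower (2.52%). Lamb1, the laminin beta 1 chain, had 2461, 2285 and 2412 in mutants 8711, 9216 and 9266, against 1262.5, 1737 and 1128 in the controls. All mutant arrays were above all control arrays, and the log2 difference was 0.82 (SE 0.20), with a limma adjusted p of 0.536. A second Lamb1 probe set, 1424113_at, had a difference of 1.24, and the dimmer 1451241_at and 1446180_at had 0.71 and -0.38.

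Lama2, the laminin alpha 2 chain of mesenchyme and muscle, had 63.5, 70.9 and 129 in mutants 8711, 9216 and 9266, against 45.9, 15.3 and 48.7 in the controls. Its log2 difference was 1.31 (SE 0.52), with a limma adjusted p of 0.852, or 0.80 without control 9216, which had the lowest Lama2 value. Control 9216 was also the lowest array of the periocular mesenchyme list, at -0.56, and of the vascular endothelial (-0.59) and macrophage (-0.53) lists. The part of any of these marker lists in the Lama2 difference was not tested. Without mutant 8711, 4 of the 27 ligands were higher at an unadjusted p under 0.05 (against 5.46% of all genes), Lamb1, Lama2, Lama4 and Col1a2, the last 2 named after their values were seen.

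The intracellular adaptors and signalling proteins of integrins had 23 higher and 14 lower among 37 tested, with a median log2 difference of 0.13. None passed adjustment, and at an unadjusted limma p under 0.05 there were 4 higher and 0 lower, beside 4.4% and 2.52% of all genes. Without mutant 8711 the counts were also 4 and 0, beside 5.46% and 3.97% of all genes. Vcl, which encodes vinculin and ties adhesions to actin, had 1302, 857 and 982 in mutants 8711, 9216 and 9266, against 649.7, 675 and 679 in the controls. All mutant values exceeded all control values, and the log2 difference was 0.63 (SE 0.21), with a limma adjusted p of 0.773. Rsu1, a binding partner of the PINCH adaptors, had 382.5, 332 and 369.5 in the mutants, against 226.5, 247 and 210.3 in the controls. Its log2 difference was 0.66 (SE 0.19), with a limma adjusted p of 0.687, whereas the dim second probe set 1457220_at had -0.47.

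Tgfb1i1, the adhesion protein Hic-5, had 74.1, 65.9 and 128 in mutants 8711, 9216 and 9266, against 43.8, 26.6 and 58.5 in the controls, a log2 difference of 1.03 (SE 0.41) with a limma adjusted p of 0.852. Itgb3bp, which carries the name of an Itgb3 binding protein and is also a centromere component, had 156, 172 and 144 in the mutants, against 91.0, 97.8 and 108.5 in the controls, a log2 difference of 0.66 (SE 0.23) with a limma adjusted p of 0.836. The other Itgb3bp probe sets tested had differences from -0.66 to 0.32. Of 13 tested membrane partners of integrins, 5 were higher and 8 lower, with a median of -0.02. By the brightest probe set, 0 had an unadjusted limma p under 0.05, beside 4.4% of all genes higher and 2.52% lower. Cd151, a tetraspanin bound to laminin-binding integrins, had 689, 638 and 644 in the mutants, against 825, 737 and 862 in the controls, a log2 difference of -0.30 (SE 0.17) with a limma adjusted p of 0.852. All mutant values were below all control values in this Cd151 probe set and in 1456085_x_at (-0.34). The other tested Cd151 probe sets had from -1.02 to 0.28. The lowest, 1451232_at, had overlapping groups, an unadjusted limma p of 0.0316 and an adjusted p of 0.852. Slc3a2, the heavy chain of an amino acid transporter that binds beta integrins, had a log2 difference of 0.42 (SE 0.24) and overlapping groups.

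**Figure D4:**
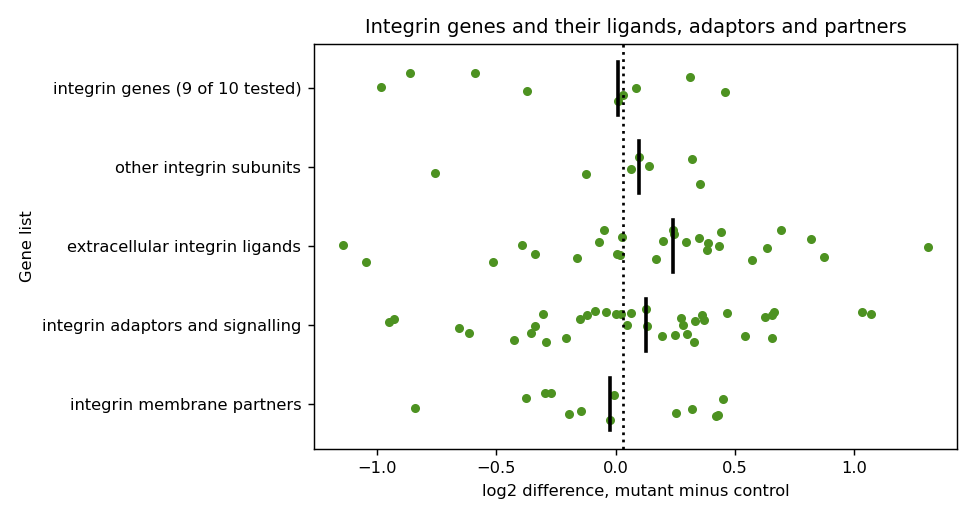
Log2 difference, mutant minus control, of each tested gene (points, brightest probe set, spread vertically for legibility) in 5 lists of integrin genes and genes that act with them; thick lines are list medians and the dotted line is the median of all genes (0.03). The integrin genes range from -0.98 to 0.46, with a median of 0.01.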

How the data were processed

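MAS5 is the tool in the submitters' processing notes, and its version is not given in the sources used here. Values were deposited as linear intensities, 1 per probe set and array, and their 2% trimmed mean was 150.0 in each array, a common scale already. No further normalization was applied. Of 45101 probe sets, 64 manufacturer controls were left out. Symbols came from the platform annotation (34945 probe sets with 1 symbol, 932 with several, 9160 with none), and 0 were updated.

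Intensities were taken as log2(value + 1.7), the 10th percentile of all values, so fold changes of dim genes are understated. Probe sets with a mean log2 value under the 40th percentile (4.07) were left out. The other 27022 were fitted with limma 3.58.1 (lmFit, then robust eBayes with an intensity trend), under R 4.3.3 and statmod 1.5.0, with Benjamini-Hochberg adjustment over all of them. The fit was tested on simulated data. The probe set of highest mean log2 value stands for a gene. Differences are mutant minus control. Figures used Python 3.11.15 and matplotlib 3.10.9.

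The integrin genes and the lists were chosen with earlier results of these data known. Named were all integrin genes, the brightest Fgfr1 and Fgfr2 probe sets and, per integrin-related list, up to 5 members with an unadjusted p under 0.05, or otherwise the 2 with the smallest p. The lists of vascular endothelial markers (median log2 difference -0.01 over 12 genes), macrophage markers (0.25 over 14) and lens markers (-0.59 over 7) gave no integrin result. Summed macrophage intensity ran from 3068 to 3702.5 in the mutants and from 2014 to 2775 in the controls. At an unadjusted limma p under 0.05, 3 of the 14 macrophage markers were higher, beside 4.4% of all genes. The lens mean log2 value was -0.61, -1.06 and 0.61 in mutants 8711, 9216 and 9266, relative to the control mean. Alternatives are in the closing section.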

Additional observations from a re-analysis of the deposited data

How the results depend on the processing

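No integrin gene passed an adjusted p of 0.05 in limma under any alternative run. Itgb8 stayed lower in the mutants under all 17 alternatives, from -1.18 to -0.67, with adjusted p from 0.211 (array weights) to 0.999. Itga5, Itga9, Itgb1 and Itgb3 also kept their direction. Array weights ran from 0.151 for mutant 8711 to 5.98 for control 8711, with 0.63 and 1.52 for controls 9216 and 9266. Over all probe sets, 184 passed with these weights. Without 1 array the number ran from 0 to 1, the 1 without mutant 8711, and without both 8711 arrays it was 1. The other alternatives gave 0. The number of integrin genes higher in the mutants was 3 of 9 with quantile normalization, array weights and without both 8711 arrays, and from 3 to 5 without 1 array. Itga3 turned to -0.20 with array weights. Itga6 turned to -0.040 with quantile normalization, -0.11 with array weights, -0.22 with the mean of its probe sets and -0.21 without both 8711 arrays. Itgav turned to -0.022 with quantile normalization and -0.056 without both 8711 arrays. With 1 array left out, Itga3 ran from -0.17 to 0.30, Itga6 from -0.17 to 0.13, Itgav from -0.037 to 0.13 and Itgb5 from -0.23 to 1.08, and the reversals were -0.08 (without control 9216) and -0.17 (without mutant 9266) for Itga3, -0.02, -0.07 and -0.17 (without control 8711, control 9216 and mutant 8711) for Itga6, -0.037 and -0.027 (without control 8711 and mutant 9216) for Itgav and -0.23 (without mutant 9266) for Itgb5. The cause was not tested. The median difference of all probe sets tested was -0.05 as deposited, 0.06 with median centring and 0.01 with quantile normalization. The title numbers were not taken as pairs, as the labels do not say what they mark. Deviations of same-numbered arrays correlated at 0.05, 0.48 and -0.11 for 8711, 9216 and 9266. The 0.48 was the highest of all mutant and control combinations, and mutant 8711 correlated best with control 9266 (0.35). With 3 arrays in each group, these correlations cannot decide the pairing. With the replicate block 0 probe sets passed and 5 integrin genes were higher. Itgb8 then had an unadjusted limma p of 0.0119 and an adjusted p of 0.765.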
